A study of Mus musculus with 24 samples.

Results

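The genes described here are 10 genes of intraepithelial and cytotoxic T cells, Cd4, Cd8a, Cd8b1, Gzma, Gzmb, Prf1, Itgae, Cd160, Fasl and Nkg7, chosen by name from 39056 genes and followed across the 12 CD45+ libraries of the series. The study sequenced RNA from CD45+ cells, which are leukocytes, and from CD45- cells, both sorted from C57BL/6 mouse ileum freed of Peyer's patches, with 12 libraries of each. Part of the epithelial fraction was pooled with the lamina propria before sorting, so that the CD45+ cells could come from both layers. Both sexes were used, and Hoil1+/+ littermates served as controls. The mice were Hoil1+/+ or Hoil1-/-, homozygous for a mutant allele of Rbck1, the gene of a subunit of the linear ubiquitin ligase. The mutation is present in all cells and leaves a reduced amount of the N-terminal part of the protein, so the mice are a partial and not a complete loss of function. All carried the floxed Il4ra allele. It was left intact in Il4ra f/f mice and deleted by Cre from the Vil1 promoter, which is active in intestinal epithelium and not in leukocytes, in Il4ra dIEC mice. Each of the 4 genotypes had 3 CD45+ libraries. The ages given for the CD45+ libraries were 9.9, 9.1 and 9 weeks in Hoil1+/+ Il4ra f/f, 9.7, 9.7 and 9 weeks in Hoil1+/+ Il4ra dIEC, 9.9, 9.4 and 9 weeks in Hoil1-/- Il4ra f/f, and 9.6, 9.6 and 9.1 weeks in Hoil1-/- Il4ra dIEC. Those of the CD45- libraries ran from 9 to 10.3 weeks.

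CD45+ libraries held 14938600 to 76807500 counts. The sample list of the study leaves out 2 of them, both Hoil1-/-, which are replicate 1 of Il4ra f/f and replicate 3 of Il4ra dIEC. The methods of the study state that outlier samples, found by principal component analysis, were removed. The tests of genotype thus used 6 Hoil1+/+ and 4 Hoil1-/- libraries. Both libraries left out came from mice of 9 to 9.1 weeks, and every Hoil1-/- library retained came from a mouse of 9.4 weeks or more, whereas 3 of the 6 Hoil1+/+ libraries came from mice of 9 to 9.1 weeks. Rbck1, the mutated gene, stood at 79.2 to 138 CPM in Hoil1+/+ and at 4.70 to 13.9 CPM in Hoil1-/-, which matched the labels. CPM gives a gene's counts as a share of the TMM-scaled library size, on one scale for the 12 CD45+ libraries. CD45- libraries were scaled separately. Ptprc, which encodes CD45, was at 227 to 663 CPM in the 12 libraries, and its values split by age. In Hoil1+/+ it was at 590 to 663 CPM in mice of 9.4 weeks or more and at 309 to 492 CPM in mice of 9 to 9.1 weeks. In Hoil1-/- it was at 492 to 560 CPM and, in the 2 younger mice, at 227 to 406 CPM. Immunoglobulin genes took 12.1% to 44.0% of the counts of a CD45+ library.

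Intraepithelial lymphocytes are T cells that lie between the epithelial cells of the gut. They are held there by the integrin CD103, the product of Itgae with its partner Itgb7, which binds E-cadherin on the epithelial cell. Many carry CD8 as an alpha-alpha homodimer made from Cd8a alone, whereas conventional cytotoxic T cells carry the alpha-beta heterodimer that also needs Cd8b1, and helper T cells carry CD4. Cytotoxic cells kill through granules that hold the pore-forming protein perforin and the granzymes, or through Fas ligand, which engages Fas on the target cell. In mouse intestine CD8 and granzymes are typical of the intraepithelial compartment and CD4 of the lamina propria, but Cd4 is also transcribed in lymphoid tissue inducer cells and some myeloid cells.

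The coreceptor genes all lie on chromosome 6 of the mm10 (GRCm38) build, with Cd4 at chr6:124864692-124888221 on the minus strand and Cd8a (chr6:71373427-71379173) next to Cd8b1 (chr6:71322788-71337494) on the plus strand. The granule genes are on different chromosomes. Gzma, encoding the tryptase granzyme A, is at chr13:113093825-113100981, Gzmb, encoding the aspartate-cleaving granzyme B, at chr14:56258838-56262260, and Prf1, encoding perforin, at chr10:61297833-61304680. Nkg7, whose product is a membrane protein of cytotoxic granules, is at chr7:43437073-43438249. Itgae is at chr11:73090583-73147446, Fasl at chr1:161780689-161788495 and Cd160, which encodes a receptor for HVEM, at chr3:96798763-96829351. Exons of Cd160 overlap those of the antisense gene Pdzk1, an enterocyte gene. The libraries were strand-selected, but the sources used here do not state whether counting used the strand, so reads of the pair may not have been separated.

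Promoters are shown for the 4 granule genes Gzma, Gzmb, Prf1 and Nkg7. RefSeq sequences (GRCm38.p6) from 250 bases before to 50 bases after the start site were at hand for 7 of the 10 genes, with 2 promoters for Cd160. Cd4, Cd8b1 and Itgae had no entry. Each sequence is written 5′ to 3′ on the strand of its gene, and capitals mark the core letters bound by RUNX factors, TGTGGT, or their reverse complement ACCACA. RUNX3 is the member of that family known for its part in the CD8 lineage. Gzma is read from chr13:113100932-113101231 on the minus strand, Gzmb from chr14:56262285-56262584 on the minus strand, Prf1 from chr10:61297586-61297885 on the plus strand and Nkg7 from chr7:43436888-43437187 on the plus strand.
Gzma: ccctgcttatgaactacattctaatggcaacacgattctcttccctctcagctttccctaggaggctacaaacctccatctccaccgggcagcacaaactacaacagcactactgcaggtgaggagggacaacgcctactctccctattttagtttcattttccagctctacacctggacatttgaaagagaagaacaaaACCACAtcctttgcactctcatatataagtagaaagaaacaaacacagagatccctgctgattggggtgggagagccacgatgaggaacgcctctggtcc
Gzmb: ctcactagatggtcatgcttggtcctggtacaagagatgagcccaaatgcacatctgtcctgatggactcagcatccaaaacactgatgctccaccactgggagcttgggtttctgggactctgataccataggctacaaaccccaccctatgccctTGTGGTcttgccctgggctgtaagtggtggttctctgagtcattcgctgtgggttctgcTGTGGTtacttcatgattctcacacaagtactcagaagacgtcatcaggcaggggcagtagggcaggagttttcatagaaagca
Prf1: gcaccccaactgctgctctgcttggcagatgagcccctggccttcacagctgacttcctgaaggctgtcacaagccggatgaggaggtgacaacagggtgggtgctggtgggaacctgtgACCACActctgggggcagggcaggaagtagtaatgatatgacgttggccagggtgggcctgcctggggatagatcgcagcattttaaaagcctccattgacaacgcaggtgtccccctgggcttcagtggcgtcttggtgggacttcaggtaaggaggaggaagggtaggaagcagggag
Nkg7: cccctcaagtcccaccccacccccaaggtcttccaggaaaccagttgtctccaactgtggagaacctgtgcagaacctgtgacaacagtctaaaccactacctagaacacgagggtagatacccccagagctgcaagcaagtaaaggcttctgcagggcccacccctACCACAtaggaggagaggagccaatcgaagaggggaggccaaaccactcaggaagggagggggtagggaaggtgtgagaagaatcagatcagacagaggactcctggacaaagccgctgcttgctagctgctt

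The RUNX core on either strand was found in 5 of the 7 genes (Gzma, Gzmb, Prf1, Cd160 and Nkg7). Cd8a and Fasl, whose promoters are not shown, held none. Counted by promoter, it was in 6 of 8, and in 16.8% of 32851 promoters of the same length. Gzmb held 2 copies, starting 93 and 34 bases before the start site, and Gzma held 1, 50 bases before it. Copies lay 130 bases before the start site in Prf1 and 83 bases before it in Nkg7. These start sites are those of the promoter sequences. For Gzmb, Prf1 and Nkg7 they differ from the gene bounds given above, which come from another annotation. Of the other motifs searched on both strands, the T-box core GGTGTG was in Cd160, Fasl and Nkg7 and in 19% of promoters, and the STAT motif TTCNNNGAA was in Gzmb, Cd160 and Nkg7 and in 8.3%. The ETS motif GGAAGT was in Prf1, Cd160 and Fasl (23.8% of promoters) and the E-box CAGGTG in Gzma, Prf1 and Cd160 (20.2%). The RUNX and T-box letters can overlap. A match describes these letters and is not a measured binding site.

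All 10 genes were transcripts of the CD45+ fraction. Each was higher in CD45+ than in CD45- cells, by 8.48 (Cd4) to 13.65 (Cd160) on the log2 scale. The test was edgeR's quasi-likelihood test over the 21 libraries of the sample list, which also leaves out CD45- Hoil1-/- Il4ra f/f replicate 3. Adjusted p-values were 6.61e-07 to 2.28e-05, and 24.5% of the genes tested were higher in that direction. Not a single read of Cd160 or Fasl was counted in the 12 CD45- libraries, so their fitted values depend on the prior count. The highest CD45- value of the other 8 genes ranged from 0.456 CPM (Prf1) to 16.96 CPM (Gzma). Since the fractions were made by sorting on CD45, these values describe the sort.

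Granzyme transcripts were the most abundant of the 10 for their length. The median over the 12 CD45+ libraries, in CPM per kilobase of exon, was 745 for Gzma, 239 for Gzmb, 80.1 for Nkg7, 48.3 for Cd4, 29.3 for Itgae and 27.4 for Cd8a. Cd8b1 (15.2), Cd160 (10.2), Prf1 (7.29) and Fasl (5.94) were lowest. Gzma stood above Gzmb and Gzmb above Nkg7 in 12 of 12 libraries, and Cd8a above Cd8b1 in 10 of 12. The other neighbours in this order differed by less than the SD of their log2 difference across libraries.

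Cd4 was the steady gene of the 10. It read 156, 174 and 198 CPM in Hoil1+/+ Il4ra f/f and 165, 233 and 234 CPM in Hoil1+/+ Il4ra dIEC. In Hoil1-/- it read 192, 208 and, in the library outside the sample list, 292 CPM with Il4ra f/f, and 189, 199 and, outside the list, 130 CPM with Il4ra dIEC. The values of both Hoil1 genotypes overlapped, and the highest was 2.25 times the lowest. For the other 9 genes that ratio was 10.6 to 43.4, with an SD of 0.99 to 1.59 on the log2 scale against 0.30 for Cd4.

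Cd8a showed how the other 9 were spread. It read 75.0, 588 and 70.3 CPM in Hoil1+/+ Il4ra f/f replicates 1 to 3 and 503, 415 and 38.5 CPM in Hoil1+/+ Il4ra dIEC replicates 1 to 3. In Hoil1-/- Il4ra f/f it read 134 and 207 CPM, with 102 CPM in the library outside the list, and in Hoil1-/- Il4ra dIEC 97.5 and 75.8 CPM, with 45.9 CPM outside the list. All 6 Hoil1-/- values thus lay between the lowest and the highest Hoil1+/+ value, and within Hoil1+/+ a high and a low set were seen in both Il4ra genotypes.

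The granzymes had the same layout. Gzma read 607, 4882 and 416 CPM in Hoil1+/+ Il4ra f/f, 3374, 1855 and 123 CPM in Hoil1+/+ Il4ra dIEC, 806 and 1522 CPM in Hoil1-/- Il4ra f/f and 693 and 409.9 CPM in Hoil1-/- Il4ra dIEC, with 919 and 478 CPM in the 2 libraries outside the list. Gzmb read 247, 1950.1 and 219 CPM in Hoil1+/+ Il4ra f/f, 1362, 778 and 44.9 CPM in Hoil1+/+ Il4ra dIEC, 409 and 485 CPM in Hoil1-/- Il4ra f/f and 365 and 204 CPM in Hoil1-/- Il4ra dIEC, with 321 and 288 CPM outside the list. For both granzymes the Hoil1-/- libraries lay inside the Hoil1+/+ range.

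Prf1 and Cd160 were lowest in a library outside the list. Prf1 read 13.1, 71.3 and 20.8 CPM in Hoil1+/+ Il4ra f/f, 63.0, 53.3 and 15.8 CPM in Hoil1+/+ Il4ra dIEC, 27.3 and 40.2 CPM in Hoil1-/- Il4ra f/f and 16.9 and 15.2 CPM in Hoil1-/- Il4ra dIEC, with 11.8 and 1.71 CPM outside the list. Cd160 read 23.01, 105 and 17.7 CPM in Hoil1+/+ Il4ra f/f, 116, 104 and 9.42 CPM in Hoil1+/+ Il4ra dIEC, 42.5 and 35.0 CPM in Hoil1-/- Il4ra f/f and 31.0 and 17.1 CPM in Hoil1-/- Il4ra dIEC, with 12.1 and 2.72 CPM outside the list. The 4 Hoil1-/- libraries of the list fell within the Hoil1+/+ range for both, as they did for each of the other 8 genes.

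**Figure D1:**
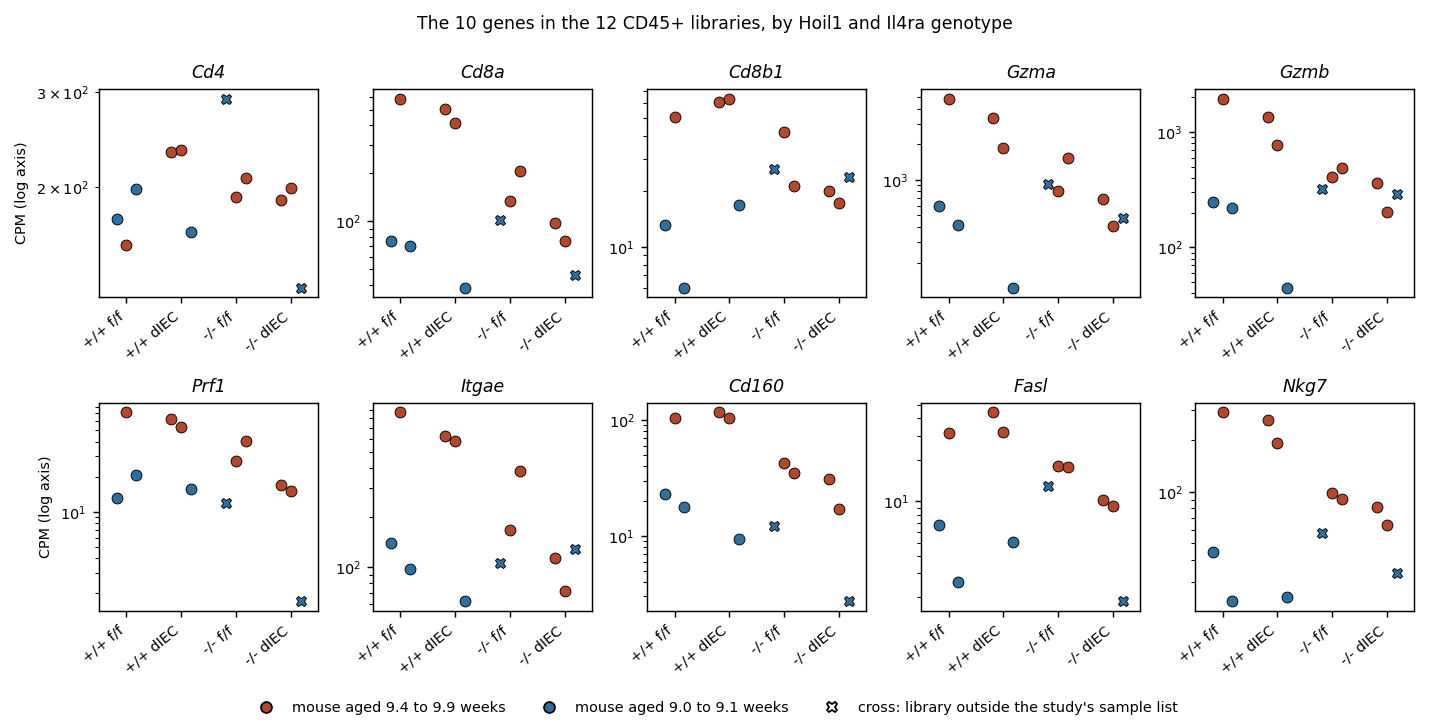
CPM of the 10 genes (log axis, a scale of its own in each panel) in the 12 CD45+ libraries by genotype, with 1 point per library, red for mice of 9.4 to 9.9 weeks, blue for mice of 9.0 to 9.1 weeks and crosses for the 2 libraries outside the sample list. In 9 panels the 3 red Hoil1+/+ points sit above the 3 blue ones, and Cd4 shows no such gap.

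The first question of the design is how these genes differed in Hoil1-/- mice. None of the 10 passed the test. In the comparison of Hoil1-/- with Hoil1+/+ averaged over both Il4ra genotypes, log2 fold changes ran from -1.31 (Itgae) to 0.03 (Cd4), with a median of -0.88 against -0.05 over all genes. In bulk RNA, fewer cells of a type and less RNA per cell cannot be told apart. Itgae was at -1.31 (SE 0.76, edgeR adjusted p = 0.785), Gzma at -1.23 (SE 0.89, 0.830), Cd8a at -1.20 (SE 0.77, 0.813) and Gzmb at -1.11 (SE 0.86, 0.842). Cd160 (-0.999), Prf1 (-0.76), Nkg7 (-0.73), Fasl (-0.55) and Cd8b1 (-0.44) followed, and Cd4 was at 0.03 (SE 0.17). A single library, Hoil1+/+ Il4ra f/f replicate 2, moved the values of the 9 genes other than Cd4 most when left out. Without it Itgae was at -0.50, Gzma at -0.26, Cd8a at -0.33, Gzmb at -0.22, Cd160 at -0.38 and Prf1 at -0.24, and Cd8b1, Fasl and Nkg7 turned positive. The standard errors show how little this comparison could resolve for any gene but Cd4. Of all genes tested, 0.00587% (Rbck1 alone, at -3.81, SE 0.32, adjusted p = 0.0069) passed.

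Without age in the model, the result did not turn on the count model. In none of 87 such fits over 5 contrasts, with other scalings, filters, tools and library sets included, was any of the 10 genes called, and over 16 such variations of the averaged Hoil1 effect the lowest adjusted p was 0.743, from DESeq2. An exact two-sided permutation test of mean log2(CPM + 0.1), 4 against 6 libraries, gave p = 0.419 (Itgae) to 0.981 (Nkg7), where the smallest p possible is 0.0095. On that scale the mean of Fasl was 0.06 higher in Hoil1-/- and the fitted value was negative.

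Separating the Il4ra genotypes made the same 10 genes no easier to call. Within Il4ra f/f the log2 fold changes for Hoil1 ran from -0.83 (Gzmb) to 0.46 (Cd8b1), with a median of -0.31, and 0.00% of genes passed. Within Il4ra dIEC they ran from -2.21 (Itgae, SE 1.12, adjusted p = 0.775) to -0.13 (Cd4), with a median of -1.48, and again 0.00% passed. The test of that difference, the Hoil1 by Il4ra interaction, gave -1.89 (Fasl, SE 1.39, adjusted p = 0.815) to -0.32 (Cd4), with a median of -1.39 and 0.00% of genes passing. The counts of genes at an unadjusted p under 0.05 were 898, 1035 and 1193 in these 3 contrasts, none of them among the 10, and DESeq2 called 100, 184 and 191 genes, again without any of the 10. Epithelial deletion of Il4ra, averaged over both Hoil1 genotypes, moved the 10 by -0.64 (Itgae, SE 0.73) to 0.17 (Cd8b1, SE 0.57), with adjusted p-values of 0.823 or more, where 0.00587% of genes passed.

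Genes of the wider T cell programme were as hard to separate by Hoil1. Of 17 genes of the T cell receptor complex and its signaling, none passed in either direction (median log2 fold change -0.14). The other lists, with no call in any, were 21 genes associated with intraepithelial lymphocytes (median -0.44), 16 of cytotoxic granules and killing (-0.12), 16 regulators of the CD4 and CD8 lineages (0.18), 11 of helper T cells (0.60) and 13 ligands, partners and IL-15 components (0.07). Among the partners of the 10, Cdh1, the E-cadherin bound by CD103, was at -0.86 (SE 0.61), Itgb7 at -0.06, the granzyme B inhibitor Serpinb9 at -0.11 and Fas at -0.10. Ctsc, the protease that activates granzymes, was at -0.42 (SE 0.22, edgeR adjusted p = 0.783). The lineage factors Runx3 (0.04), Zbtb7b (0.13) and Tbx21 (-0.16) and the IL-15 receptor chain Il2rb (-0.09) were near 0.

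The genes of each list with the smallest unadjusted p pointed to both sides. The receptor adaptor Trat1 (-1.29, SE 0.74), the chemokine Xcl1 (-0.80, SE 0.37), the adhesion molecule Jaml (-0.31, SE 0.16) and the death ligand Tnfsf10 (-0.94, SE 0.59) had negative values. The adhesion molecule Cd2 (0.45), the lineage factors Gata3 (2.07, SE 0.50) and Satb1 (0.75), the IL-2 receptor chains Il2ra (1.32) and Il2rg (0.32) and the cytokine Il15 (0.62) had positive ones. Gata3 had the lowest adjusted p of these, 0.569, so that none passed.

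Ratios within a library were compared as well. Each of the 10 genes over Cd3e, a chain of the T cell receptor complex, and 10 ratios among the genes were set side by side in 4 Hoil1-/- and 6 Hoil1+/+ libraries. The ratios with Cd4 were lowest where Cd3e was highest, and so moved with the T cell RNA of a library. Fasl over Cd3e was 0.0523 to 0.0567 in Hoil1-/- and 0.0355 to 0.0526 in Hoil1+/+, so that the groups overlapped at one value. On log2 values with 0.1 CPM added the difference was 0.24 and the groups just separated (exact permutation p = 0.0095, the smallest possible), whereas without that addition the exact p was 0.019 and with 1 CPM added 0.114. After adjustment over the 20 ratios the first p was 0.19, and the other 19 had an adjusted p of 0.942 or more. Cd4 over Cd8a was 1.01 to 2.63 in Hoil1-/- and 0.265 to 4.28 in Hoil1+/+, a log2 difference of 0.56 that was smaller than the SD of 1.65 within Hoil1+/+. Cd8b1 over Cd8a was 0.104 to 0.311 and 0.0855 to 0.439.

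The 9 genes other than Cd4 moved together from library to library. Over the 12 CD45+ libraries, Pearson's r of log2(CPM + 0.1) was highest for Nkg7 with Cd3e (r = 0.983, rho = 0.993), Gzma with Gzmb (r = 0.981, rho = 0.972) and Cd8a with Nkg7 (r = 0.951, rho = 0.951). It was lowest for Cd4 with Cd8b1 (r = 0.192, rho = 0.329), with Gzmb (r = 0.191, rho = 0.238) and with Itgae (r = 0.120, rho = 0.0909). Among the 36 pairs without Cd4 the median r was 0.827, and within the 6 Hoil1+/+ and the 6 Hoil1-/- libraries it was 0.937 and 0.601. These points share library, depth and scaling, so the values are descriptions. The high correlations within Hoil1+/+ rest on 3 high and 3 low libraries and are close to a single contrast. Leaving out the 2 libraries farthest from the median of the first gene gave r = 0.966 for Nkg7 with Cd3e, 0.963 for Gzma with Gzmb and 0.901 for Cd8a with Nkg7.

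**Figure D2:**
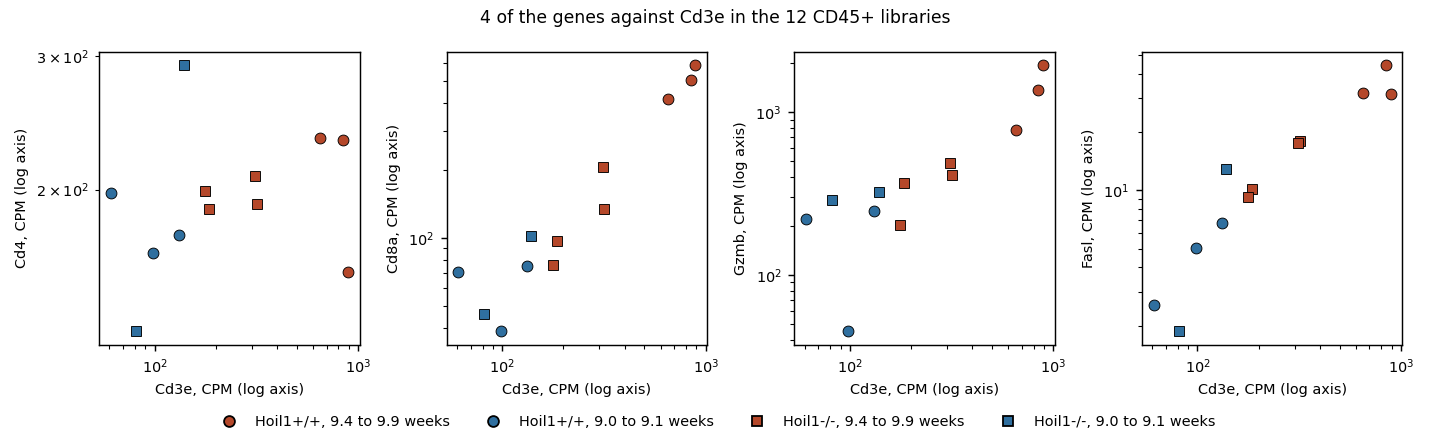
CPM of Cd4, Cd8a, Gzmb and Fasl (vertical log axes) against Cd3e (horizontal log axis) in the 12 CD45+ libraries, with circles for Hoil1+/+, squares for Hoil1-/-, red for mice of 9.4 to 9.9 weeks and blue for mice of 9.0 to 9.1 weeks. Cd8a, Gzmb and Fasl climb with Cd3e, and Cd4 stays between 130 and 292 CPM.

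The genes whose pattern was most like that of Cd8a, of 10031 genes with a mean of at least 5 CPM, were the chemokine Ccl5 (r = 0.989), the T cell surface gene Cd7 (0.978) and the gamma-delta receptor constant gene Trdc (0.972), over 12 libraries. Gzmb was most like Gzma (0.981), Ccl5 (0.953) and the gamma-chain variable gene Trgv2 (0.934). Cd4 had no gene at r over 0.9, and the 3 nearest were Ap3m2 (0.845), Mppe1 (0.834) and the globin gene Hbb-bs (0.814).

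The high and low Hoil1+/+ libraries differed in the age of the mouse, a division noticed after the values were seen. Libraries of mice aged 9.7 to 9.9 weeks (Il4ra f/f replicate 2 and dIEC replicates 1 and 2) were above those of 9 to 9.1 weeks for 9 of the 10 genes, Cd4 being the exception. Among all 10031 genes, 14.7% showed this order. Cd8a was at 415 to 588 CPM in the 3 older mice and at 38.5 to 75.0 CPM in the 3 younger. Itgae was at 580 to 868 against 61.9 to 140 CPM, Fasl at 31.6 to 44.3 against 2.57 to 6.74 CPM, and Nkg7 at 194 to 291 against 22.99 to 44.5 CPM. The lowest older value exceeded the highest younger one by 2.56 times (Prf1) to 5.54 times (Cd8a). The labels give no day of sorting or library preparation, so that age and any such day cannot be told apart.

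In Hoil1-/- mice the age groups were less separate. With 4 libraries of 9.4 to 9.9 weeks and 2, both outside the sample list, of 9 to 9.1 weeks, the older were all above the younger for Prf1 (15.2 to 40.2 against 1.71 to 11.8 CPM), Cd160 (17.1 to 42.5 against 2.72 to 12.1 CPM) and Nkg7 (64.3 to 98.8 against 33.7 to 57.8 CPM). Of 10031 genes, 20.9% showed this order in Hoil1-/-. For the other 7 genes the age groups overlapped, as for Cd8a at 75.8 to 207 against 45.9 to 102 CPM.

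The age groups were drawn after the values of these genes were seen. The p-values for age below therefore describe that division and are not an independent test of it. Fitted over the 12 libraries beside the genotypes, 5 of the 10 genes were higher in the older mice, where 1.51% of genes were. These were Cd160 (log2 2.62, SE 0.31, edgeR adjusted p = 0.00524), Prf1 (2.10, SE 0.28, 0.00769), Fasl (2.07, SE 0.43, 0.0394), Nkg7 (1.96, SE 0.42, 0.0414) and Cd8a (1.94, SE 0.44, 0.0488). Gzma (1.77), Gzmb (1.70), Itgae (1.65) and Cd8b1 (1.01) did not pass, and Cd4 was at 0.04 (SE 0.20). In the 10 libraries of the sample list, where all younger mice were Hoil1+/+, 9 of the 10 passed and 0.957% of genes did. Leaving out 1 library at a time left 1 to 5 of the 10, with 1 left without Hoil1+/+ Il4ra f/f replicate 2.

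Other T cell genes were tested in the same fit, in which 1.51% of all genes were higher and 0.760% lower in the older mice. Of 17 T cell receptor genes 9 were higher and 8 did not pass, Cd3e (2.08, SE 0.37, edgeR adjusted p = 0.0238) being among the 9, and of the lineage regulators 6 of 16 were, with Tbx21 at 2.73 (SE 0.18, 0.000217), Runx3 at 1.09 and Gata3 at 2.05. Il2rb was 1 of 13 ligands, partners and IL-15 components to pass (1.98, SE 0.17, 0.00105), and Ccr9, the small-intestinal homing receptor, 1 of 21 intraepithelial genes. Of the granule genes none was higher and 2 of 16, Ctsc (-0.81) and Lamp1, were lower. In the age fit of the 10 libraries of the sample list, the granule genes Ctsw, Gzmk and Tnfsf10 were higher and none was lower. So were Ccl5, Cd244a, Cd7, Cd96, Itga1 and Klrd1 of the intraepithelial genes, where 0.957% of all genes were higher. In Hoil1+/+, 10 of the 16 granule genes were above in all older libraries and 2 below, against 14.7% and 11.7% of 10031 genes. None of the 11 helper T cell genes passed.

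With age taken into account, the Hoil1 comparison gave other answers under different models. All of these models were chosen after the values were seen. Of 9 such settings 4 called at least 1 of the 10 genes and 5 called none. The 4 were the age group term in 10 libraries, with either test, and the older mice with 4 genotype means, with either scaling. Every Hoil1-/- mouse among the 10 libraries is older, so all 4 compare older Hoil1-/- with older Hoil1+/+ mice. They are not separate answers. With an age group term in the 10 libraries, 5 were lower in Hoil1-/-: Cd8a (-2.15, SE 0.22, edgeR adjusted p = 0.0337), Itgae (-2.22, SE 0.31, 0.0476), Cd160 (-1.94, SE 0.29, 0.0495), Nkg7 (-1.64, SE 0.24, 0.0495) and Prf1 (-1.46, SE 0.22, 0.0495). In that fit 0.153% of genes were lower. Leaving out a single library ended every one of these calls for 6 of 10 libraries: replicates 1 and 2 of Hoil1-/- Il4ra dIEC, replicates 1, 2 and 3 of Hoil1+/+ Il4ra dIEC and replicate 2 of Hoil1+/+ Il4ra f/f. A likelihood ratio test in place of the quasi-likelihood test called 9 of the 10, with 1.00% of genes lower.

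Restricting the comparison to the 7 libraries of mice of 9.4 weeks or more, 8 of the 10 genes were lower in Hoil1-/-, and 0.361% of genes were. Cd8a was at -2.08 (SE 0.21, edgeR adjusted p = 0.0155), Nkg7 at -1.62 (SE 0.19, 0.0225), Cd160 at -1.80 (SE 0.23, 0.0254) and Gzmb at -2.01 (SE 0.26, 0.0276). Prf1 (-1.46), Itgae (-2.17), Gzma (-2.15) and Fasl (-1.39) also passed, Cd8b1 was at -1.19 (adjusted p = 0.129) and Cd4 at 0.06. Cd3e (-1.76, SE 0.16, 0.0155), Cd3d, Cd3g and Trat1 were lower in the same fit, 4 of the 17 T cell receptor genes, whose median was -0.82. The 8 epithelial markers had a median of -1.41 there, with 7 of 8 negative and none passing. RLE size factors gave 8 as well. In these fits Hoil1+/+ Il4ra f/f had a single library, replicate 2, whose own spread could not be measured. It weighed as much as both Hoil1+/+ Il4ra dIEC libraries together. Of all CD45+ libraries it was highest for Cd8a, Gzma, Gzmb, Prf1, Itgae and Nkg7, and not for Cd4, Cd8b1, Cd160 or Fasl. Among these older mice, the 3 Hoil1+/+ libraries lay above the 4 Hoil1-/- libraries for 9 of the 10 genes, by 1.20 times (Cd8b1) to 2.44 times (Cd160) from the lowest to the highest value. Of 10031 genes, 6.64% showed this order. With 3 against 4 libraries the exact permutation test cannot go below p = 0.0571, the value it gave for those 9 genes.

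The same comparison failed in other forms. In the 7 older libraries a mean for each Hoil1 genotype, without Il4ra, called none of the 10. Leaving out a single library was tried with this model only, and 6 of the 7 such fits again called none. Without Hoil1-/- Il4ra f/f replicate 3 it called 3. None was called with the age group term in all 12 libraries, nor with age as a number in 10 or in 12 libraries. In the 5 younger libraries, 2 Hoil1-/- outside the list against 3 Hoil1+/+, none was called either, and 8 of the 10 values were positive, such as Cd8b1 (1.05, SE 0.50), Gzma (0.87, SE 0.67) and Cd8a (0.26, SE 0.45). Prf1 (-1.31, SE 0.84) and Cd160 (-1.17, SE 0.76) were negative.

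**Figure D3:**
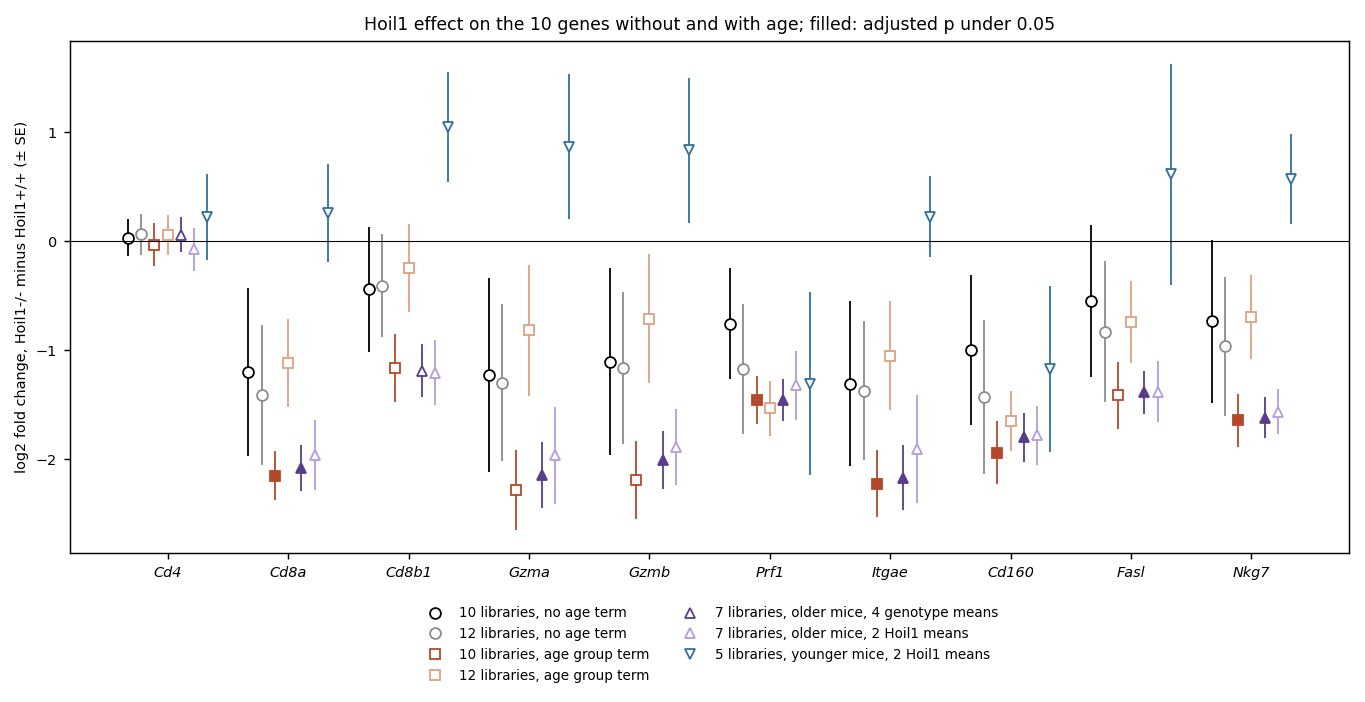
Log2 fold change of Hoil1-/- against Hoil1+/+ (vertical axis, with bars of 1 SE) for each of the 10 genes under 7 models, filled where the adjusted p was under 0.05. The filled symbols come from the age group term in 10 libraries and from the 7 older libraries with 4 genotype means, and the models without age have none.

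Whether the Hoil1 difference itself depended on age was tested as an interaction over the 12 libraries. The Hoil1 difference was more negative in the older mice for Gzmb (-3.59, SE 0.58, edgeR adjusted p = 0.0434), Gzma (-3.56, SE 0.59, 0.0463) and Cd8a (-2.47, SE 0.35, 0.0325), with 0.0747% of genes called in that direction. Nkg7 was at -2.26 (adjusted p = 0.0542), Itgae at -2.72 (0.140), Prf1 at 0.27 and Cd4 at -0.14. The test rests on the 2 younger Hoil1-/- libraries that the study's list leaves out, and its age groups were drawn after the values were seen. No gene of the 10 was called in 9 of the 12 fits that each left out 1 library.

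Markers of other cells were summed over the same libraries. In Hoil1+/+, the summed CPM of 8 epithelial markers was 186 to 339 in the 3 older mice and 45.7 to 86.0 in the 3 younger, without overlap. In Hoil1-/- it was 36.6 to 264 in the 4 older and 41.1 to 252 in the 2 younger, which overlapped. The other sums overlapped between the age groups of Hoil1+/+. The 6 plasma cell markers summed to 10568 to 18125 CPM in the older against 14252 to 43420 CPM in the younger. Singly, 5 of these 6 genes were lower in all 3 older than in all 3 younger Hoil1+/+ libraries. Among 10031 genes, 11.7% showed this order. Immunoglobulin genes took 12.1% to 17.7% of the counts in the older Hoil1+/+ libraries and 21.5% to 43.6% in the younger. In Hoil1-/- these shares overlapped, at 12.4% to 44.0% and 12.5% to 33.6%. Macrophage, monocyte and dendritic cell markers (8 genes) summed in Hoil1+/+ to 2277 to 4605 CPM in the older against 3519 to 7568 CPM in the younger. NK cell markers (7 genes), which share the granule genes but not CD3, summed to 33.9 to 52.7 against 25.6 to 37.9 CPM. The T cell receptor list, in contrast, summed to 2700 to 3043 against 349 to 810 CPM. In Hoil1-/- the ILC2 markers (7 genes) summed to 82.3 to 361 CPM and in Hoil1+/+ to 17.7 to 38.0 CPM. That list includes Il5, Klrg1, Nmur1 and Il17rb, which the study reported as higher in Hoil1-/- in this same CD45+ fraction. The separation of the ILC2 sums is therefore not an independent result. The part of cell composition in the differences above was not tested.

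**Figure D4:**
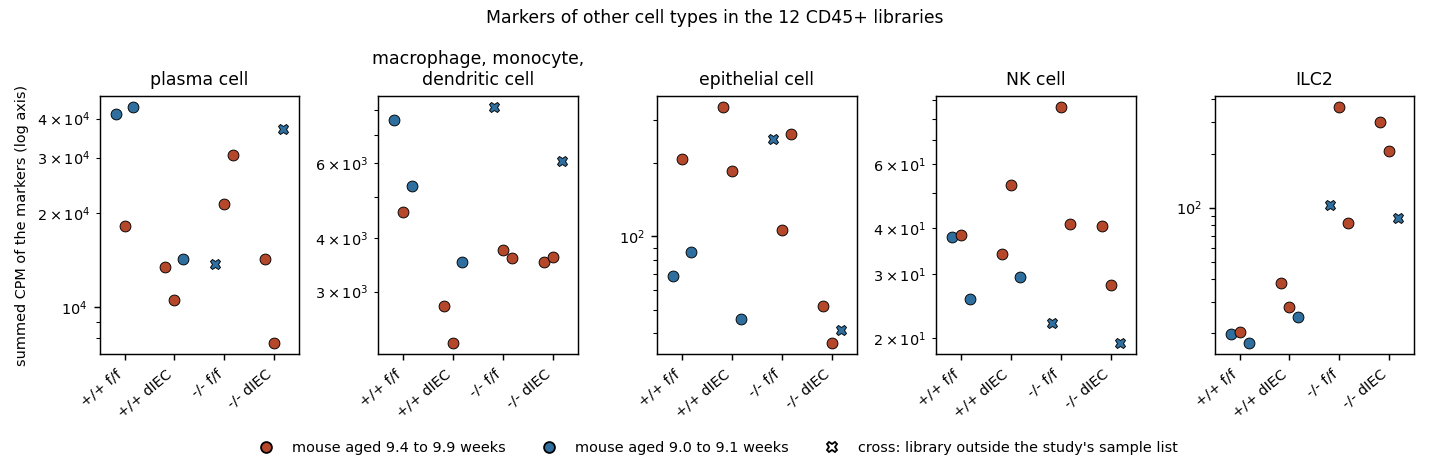
Summed CPM of marker genes of 5 other cell types (log axis, a scale of its own in each panel) in the 12 CD45+ libraries by genotype, with colours and crosses for age and sample list as in the plot of the 10 genes. Epithelial markers are higher in the 3 older Hoil1+/+ libraries than in the 3 younger. ILC2 markers are higher in all Hoil1-/- than in all Hoil1+/+ libraries, and their list includes genes that the study reported as higher in Hoil1-/- in these data.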

How the data were processed

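Polyadenylated RNA of sorted ileal cells was sequenced by the authors as a pooled, strand-selected library set. Reads were trimmed at a quality of 20 with a minimum length of 40 bases, aligned with STAR to mm10 (GRCm38) and assigned to genes with featureCounts, whose versions and options are not given in the sources used here. The authors deposited raw counts per gene for 24 libraries, with no normalization. Groups were taken from the sample labels. The labels do not state that libraries of a group came from separate litters or preparations, so p-values measure the spread between these libraries.

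Genes were kept by filterByExpr (minimum count 10, minimum total 15) and tested with edgeR 4.0.16 (R 4.3.3) by the quasi-likelihood test. Libraries were scaled by TMM, every genotype had its own mean, and p-values were adjusted over all genes by Benjamini-Hochberg, at a threshold of 0.05. The 10 CD45+ libraries of the study's sample list entered the genotype tests. DESeq2 1.42.0, other scalings, filters and library sets and leaving out each library were the alternatives. CPM used TMM-scaled library sizes, with TMM computed within each fraction and 0.1 CPM added before logs. Exact permutation tests on the 10 libraries took TMM from those 10. Correlations used 100000 permutations, ratios and single genes exact permutation tests (scipy 1.17.1). The fitting steps were tested on simulated data. Gene positions came from GENCODE M21, which held 163 of 163 listed genes. Besides the 10 genes, the text names Rbck1, Il4ra, Ptprc, Cd3e, fixed partners, the 2 genes of each list with the smallest unadjusted p for Hoil1, and the 3 highest and lowest correlations or most alike genes. 1 gene that this rule names is not reported here. Ccr9, Lamp1 and the list genes named from the age fit of the 10 libraries were named after their values were seen, as calls of their lists. The 10 genes and all lists were chosen with earlier results of these data known, and every model with age was added after the values were seen.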

Additional observations from a re-analysis of the deposited data

Results flagged for a closer look

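Fasl was at 1.87 CPM in CD45+ Hoil1-/- Il4ra dIEC replicate 3, far below the other 5 Hoil1-/- CD45+ libraries, of which the nearest was at 9.24 CPM. On the log2 scale the gap was wide for the range of the 6 values by Dixon's criterion, which flags about 1 group in 20 by chance, and this was 1 flag in 20 groups tested. The library is outside the study's sample list and entered none of the genotype tests on 10 libraries.

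In the test of the Hoil1 by age interaction over 12 CD45+ libraries (edgeR's quasi-likelihood test), 3 of the 10 genes and 0.0747% of all genes passed with a negative value. In 9 of the 12 fits that each left out 1 library, none of the 10 passed. The interaction was -2.47 for Cd8a, -3.56 for Gzma and -3.59 for Gzmb on the log2 scale, each more negative in mice of 9.4 weeks or more than in mice of 9 to 9.1 weeks. All 3 had higher values in the 3 older Hoil1+/+ libraries than in the 3 younger, whereas the older and younger Hoil1-/- libraries overlapped. Age was taken up after the values were seen, and both younger Hoil1-/- libraries are outside the study's sample list.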

How the results depend on the processing

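None of the 10 genes passed in the 5 genotype contrasts under another scaling, filter, tool or library set without age, while the number of all genes that passed depended on the tool, and the cause was not tested. For Hoil1 averaged over Il4ra (1 gene in the reported test) it was 103 by edgeR's likelihood ratio test, 143 by DESeq2, 6 without a filter on low counts, 6 without immunoglobulin genes and 2 in all 12 CD45+ libraries. Within Il4ra f/f (0) the values were 66, 100, 3, 2 and 1, and 49 by edgeR's exactTest. Within Il4ra dIEC (0) the likelihood ratio test called 51, exactTest 40, DESeq2 184 and the 12 libraries 1. For Il4ra (1) the likelihood ratio test called 201, DESeq2 400 and the 12 libraries 0, and for the interaction (0) the first 2 called 68 and 191. Leaving out 1 library gave 1 to 10 genes for the averaged Hoil1 effect, 0 to 7 within Il4ra f/f and 0 to 8 for Il4ra. It moved the Hoil1 log2 fold change of Cd4 between -0.0354 and 0.0809, of Cd8b1 between -0.73 and 0.19, of Fasl between -0.79 and 0.22 and of Nkg7 between -0.98 and 0.17, the last 3 turning positive without Hoil1+/+ Il4ra f/f replicate 2. The ranges were -1.66 to -0.50 for Itgae, -1.49 to -0.26 for Gzma, -1.45 to -0.33 for Cd8a, -1.37 to -0.22 for Gzmb, -1.25 to -0.38 for Cd160 and -0.96 to -0.24 for Prf1, each nearest to 0 without the same library.

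The models with age, added after the values were seen, gave for the Hoil1 effect 28 genes and 5 of the 10 (age group term), 251 and 9 (the same by likelihood ratio test), 77 and 8 (older mice, with TMM or with RLE scaling), 4 and 0 (age group term, 12 libraries), 2 and 0 (age as a number, in 10 or in 12 libraries) and 0 and 0 (younger mice). Cd4 turned to -0.0308 with the age group term (likelihood ratio test included, -0.0308) and to -0.0738 in older mice with 2 Hoil1 means. In younger mice Cd8a was at 0.26, Cd8b1 at 1.05, Gzma at 0.87, Gzmb at 0.83, Itgae at 0.23, Fasl at 0.61 and Nkg7 at 0.57, opposite to the 10 libraries. Leaving out 1 library gave 0 to 41 genes and 0 to 5 of the 10 with the age group term (Cd4 -0.35 to 0.0607). In older mice this was done with 2 Hoil1 means, which called 1 gene and 0 of the 10 in all 7 libraries. It gave 0 to 41 genes and 0 to 3 of the 10 (Cd4 -0.26 to 0.0321). The age effect had 177 genes and 9 of the 10 in the 10 libraries, against 365 and 5 in 12. Without 1 library it had 19 to 680 genes and 1 to 5 of the 10 (Cd4 -0.14 to 0.30). The Hoil1 by age interaction (59 genes) then had 0 to 765 genes and 0 to 5 of the 10, with Cd4 at -0.71 to 0.49, Prf1 at -0.50 to 1.29 and Cd160 at -1.32 to 0.22. In younger mice the log2 difference of Fasl over Cd3e was -0.047 and of Cd4 over Cd8a -0.0928, and in older mice r of Cd4 with Gzmb was -0.14. With 2 to 4 libraries a group, differences of the size of the SE of most of these genes could not be resolved. No paired analysis was possible because the replicate numbers do not link libraries of different genotypes.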

Other observations

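Trdc, the constant gene of the delta receptor chain and the third most alike gene to Cd8a, was at 24.3 to 318 CPM in the 12 CD45+ libraries, and Ccl5 was at 87.4 to 3424 CPM. Trgv2, alike to Gzmb, was at 3.85 to 106 CPM. Hbb-bs, the globin gene alike to Cd4, was listed at 0 in at least 1 library and reached 31.0 CPM.

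With an age group term in the 10 libraries of the sample list, 4 of 21 intraepithelial genes (Ccl5, Cd7, Cd96 and Itga1), 1 of 17 T cell receptor genes (Cd3e), 1 of 16 granule genes (Ctsw) and Cdh1 were lower in Hoil1-/-, in edgeR's quasi-likelihood test, where 0.153% of all genes were. None of the 11 helper T cell genes or the 16 lineage regulators passed there. These genes were named after their values were seen, and the fit is the one in which leaving out 1 of 6 libraries ended every call among the 10 genes.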
